A study of Mus musculus with 5 samples.

Results

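The 7 genes described here encode major secreted proteins of mouse milk: the caseins *Csn1s1*, *Csn2*, *Csn1s2a*, *Csn1s2b* and *Csn3*, the whey acidic protein gene *Wap* and the mucin-like glycoprotein gene *Glycam1*. They were taken by name as classical milk protein genes, by a rule that uses no measured value, although earlier results of these data were known when the set was drawn up, and all 7 were found among the 24319 genes of the deposited table. Expression was measured by bulk RNA-seq in 5 libraries of sorted luminal cells (the epithelium lining mammary ducts and alveoli), isolated by flow cytometry as DAPI-negative, CD24 high and CD29 low cells. The labels give wild type for 3 libraries and *Brca1* knockout for 2, all of mixed strain. Values are FPKM, that is fragments per kilobase of transcript scaled to the mapped fragments of the library, which adjusts for gene length and can be compared between genes.

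The study's *Brca1* model deletes the gene with Cre under the MMTV promoter, which is active in mammary epithelium, in *Brca1* fl/fl mice on a C57BL/6 and 129/Sv background. The study also used lines with floxed *Trp53*, and the genotype labels of these libraries do not mention *Trp53*. The mice in the study's methods were virgin or pregnant, and the stage behind each bulk library is not given in the sources used here. The labels' extraction text speaks of tumors, and the paper describes its luminal cells as BRCA1-deficient although 3 libraries are labelled wild type, so each library is named here by its label. Nothing states that the libraries came from separate animals, so p-values measure only the spread between these libraries, which may be technical. *Brca1* itself read 1.30, 1.32 and 0.234 FPKM across the wild type libraries and 1.20 and 1.34 FPKM across the knockout libraries (knockout minus wild type 0.27 in log2, SE 0.38, adjusted p = 0.94 by limma), and the labels overlapped. A gene-level FPKM does not show a deleted part.

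Caseins assemble with calcium phosphate into micelles that carry most of the protein of milk. *Csn1s1* and *Csn2* encode an alpha-casein and beta-casein, *Csn1s2a* and *Csn1s2b* encode related alpha-S2-caseins, and *Csn3* encodes kappa-casein, which sits at the micelle surface and keeps micelles apart. *Wap* encodes a whey protein and *Glycam1* a mucin-like secreted glycoprotein. Prolactin acts through its receptor and the transcription factor Stat5 to raise transcription of these genes in alveolar cells, together with glucocorticoid.

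The 5 casein genes lie side by side on mouse chromosome 5 (mm10), within 266 kb from the start of *Csn1s1* to the end of *Csn3*. In the GENCODE M21 annotation *Csn1s1* spans chr5:87666208-87682578 on the plus strand and *Csn2* chr5:87692624-87699630 on the minus strand. *Csn1s2a* spans chr5:87774567-87788797, *Csn1s2b* chr5:87808082-87824426 and *Csn3* chr5:87925579-87932665, all on the plus strand. *Wap* lies at chr11:6635482-6638637 and *Glycam1* at chr15:103562759-103565081, both on the minus strand. The annotation has 8 other genes inside the casein cluster, and 4 of them (*Prr27*, *Gm7337*, *Odam* and *BC037156*) were in the table, all under 1 FPKM in every library. The map of the cluster shows the caseins far above these neighbours, except that *Csn1s2b* stood much lower than the other caseins.

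**Figure D1:**
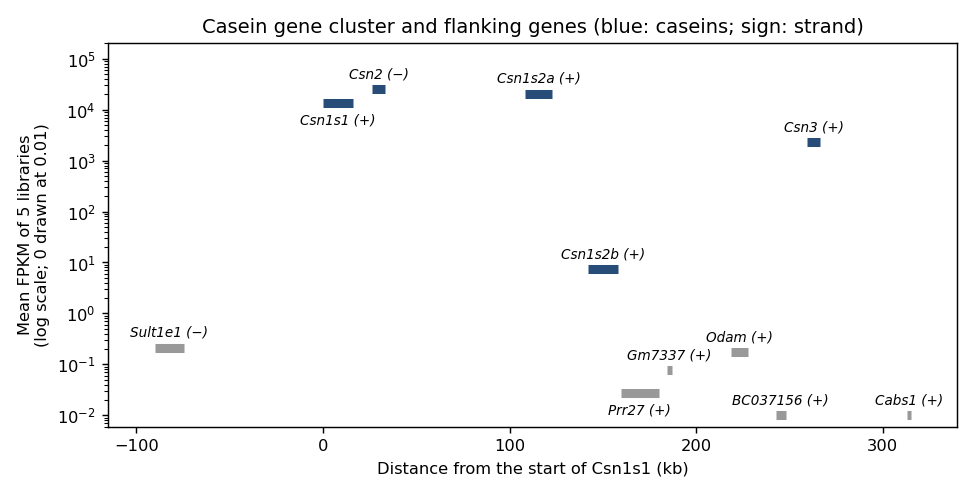
Casein cluster and its nearest flanking genes. The horizontal axis is the distance from the start of *Csn1s1* in kilobases and the vertical axis is the mean FPKM of the 5 libraries on a log scale, with 0 drawn at 0.01. Blue bars are caseins and grey bars other genes, with the strand in brackets. *Csn2*, *Csn1s2a*, *Csn1s1* and *Csn3* had means of 2268 to 25102 FPKM and *Csn1s2b* 7.30 FPKM.

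The sequences just upstream of the transcript start of 4 of these genes are given because Stat5 is known to bind a palindrome written TTCNNNGAA, and they show which of these starts carry those letters. Each line is the 250 bases before the RefSeq transcript start, 5′ to 3′ on the strand of the gene, in build GRCm38.p6, with any TTCNNNGAA in capitals.
Csn2: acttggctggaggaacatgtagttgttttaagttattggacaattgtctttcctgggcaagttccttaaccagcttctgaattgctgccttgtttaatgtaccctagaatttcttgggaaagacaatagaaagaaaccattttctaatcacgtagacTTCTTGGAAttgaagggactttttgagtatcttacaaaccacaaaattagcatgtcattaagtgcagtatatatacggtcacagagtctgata
Csn1s1: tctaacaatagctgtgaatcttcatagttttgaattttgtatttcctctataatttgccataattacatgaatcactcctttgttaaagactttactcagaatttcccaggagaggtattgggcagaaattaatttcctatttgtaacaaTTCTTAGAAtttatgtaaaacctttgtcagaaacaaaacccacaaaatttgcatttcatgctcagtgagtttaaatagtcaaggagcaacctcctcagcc
Glycam1: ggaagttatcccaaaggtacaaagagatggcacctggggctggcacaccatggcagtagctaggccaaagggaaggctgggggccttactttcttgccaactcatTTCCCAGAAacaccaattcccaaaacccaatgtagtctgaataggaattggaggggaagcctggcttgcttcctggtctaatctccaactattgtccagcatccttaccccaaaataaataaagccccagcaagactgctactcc
Wap: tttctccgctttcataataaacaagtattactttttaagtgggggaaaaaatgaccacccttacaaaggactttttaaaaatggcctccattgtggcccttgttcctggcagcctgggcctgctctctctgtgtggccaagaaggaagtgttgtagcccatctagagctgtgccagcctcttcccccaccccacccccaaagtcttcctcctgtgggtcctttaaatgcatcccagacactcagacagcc
These lie at chr5:87699426-87699675 (minus strand), chr5:87665958-87666207 (plus strand), chr15:103565082-103565331 (minus strand) and chr11:6638650-6638899 (minus strand). For *Csn2* the RefSeq start lies inside the GENCODE span given above, so most of its window, with the match, lies inside that span too. Counted from the start, the match TTCTTGGAA lay at -93 to -85 in *Csn2*, TTCTTAGAA at -100 to -92 in *Csn1s1* and TTCCCAGAA at -145 to -137 in *Glycam1*. No match was found in the windows of *Wap* and *Csn1s2a*. Such a match was present in 7.02% of 32851 RefSeq windows of the same length. *Csn1s2b* and *Csn3* are not shown. A match of letters is a description and not a measured binding site.

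*Csn2* was the most abundant protein-coding transcript in all 5 libraries. Its level in the wild type libraries, given throughout in the order of replicates 1, 2 and 3, was 28982, 31978 and 10569 FPKM. The knockout libraries, in the order of replicates 1 and 2, had 25327 and 28653 FPKM. The knockout libraries stood between wild type replicate 3, the lowest of all, and the other wild type libraries. The mean over all 5 was 25102 ± 8459 FPKM (SD, n = 5). *Csn1s2a* was the next protein-coding gene in every library, at 25857, 26001 and 9119 FPKM in the wild type libraries and 20425 and 21328 FPKM in the knockout libraries. Its pattern over libraries was that of *Csn2*, with a mean of 20546 ± 6877 FPKM. *Csn1s1* ranked 3rd among protein-coding genes in 4 libraries and 4th in wild type replicate 3. Its values were 15921, 15634 and 6148 FPKM in wild type and 14876 and 14292 FPKM in knockout libraries, with a mean of 13374 ± 4090.0 FPKM.

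*Csn1s2b*, the paralogue next to *Csn1s2a*, was on a different scale. It was measured at 9.32, 4.84 and 2.99 FPKM in the wild type libraries and at 8.18 and 11.2 FPKM in the knockout libraries, so the labels overlapped. The mean was 7.30 ± 3.34 FPKM (SD, n = 5), and *Csn1s2b* was at 0.019% to 0.053% of *Csn1s2a* in each library. The annotated transcripts of this pair share no run longer than 12 bases. They align over 117 bases at 76.9% identity. With estimated fragment numbers of 86.6 to 399 per library, this low level rests on few fragments compared with the 213700 or more estimated for *Csn2*.

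*Csn3* was far lower than the 3 leading caseins and spanned the narrowest range of the 7 genes over all 5 libraries. It was at 2184, 2891 and 1738 FPKM in wild type and 2136 and 2391 FPKM in knockout libraries. Wild type replicate 3 was lowest, but by a small margin, and the labels overlapped. The highest library was 1.66 times the lowest, against 3.03 times for *Csn2*, and the mean was 2268 ± 421 FPKM. Without wild type replicate 3, *Csn3* spanned 1.35 times and *Csn1s1*, *Csn2* and *Csn1s2a* only 1.11, 1.26 and 1.27 times.

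*Glycam1* and *Wap* varied most over all 5 libraries. *Glycam1* was at 11655, 12322 and 186 FPKM in the wild type libraries and at 5506 and 6453 FPKM in the knockout libraries, a span of 66.1 times. The knockout libraries were lower than wild type replicates 1 and 2 and far above wild type replicate 3. *Wap* was at 1240.0, 2292 and 181 FPKM in wild type and at 282 and 794 FPKM in knockout libraries, a span of 12.6 times. Here knockout replicate 1 was close to wild type replicate 3, and both knockout values were below those of wild type replicates 1 and 2. The means were 7224 ± 4967 FPKM for *Glycam1* and 958 ± 858 FPKM for *Wap* (SD, n = 5).

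**Figure D2:**
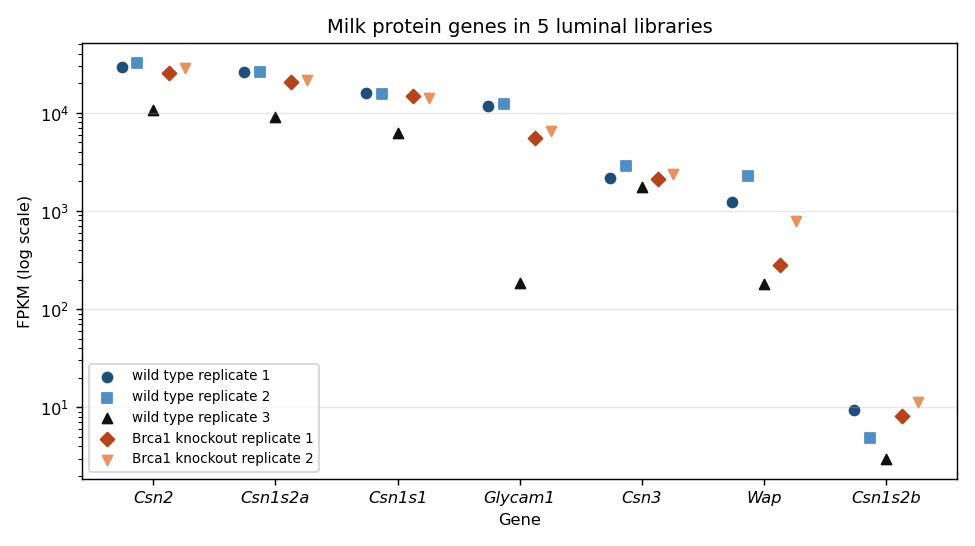
FPKM of the 7 genes (vertical axis, log scale) in each library, with blue and black symbols for wild type and orange symbols for *Brca1* knockout. Genes run from the highest to the lowest mean. Wild type replicate 3 (black triangles) was lowest for all 7 genes, most clearly for *Glycam1* at 186 FPKM.

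Ordered by mean log2(FPKM + 1), the genes ran *Csn2*, *Csn1s2a*, *Csn1s1*, *Glycam1*, *Csn3*, *Wap* and *Csn1s2b*. The means were 14.52, 14.24, 13.63, 11.95, 11.13, 9.35 and 2.94, with SDs over libraries of 0.65, 0.62, 0.59, 2.51, 0.27, 1.505 and 0.66. From *Csn2* down to *Csn3*, each neighbouring pair differed by less than the larger of its SDs. The step from *Csn3* to *Wap* exceeded both genes' SDs, and that from *Wap* to *Csn1s2b* was several SDs. Within libraries the order was firmer for the leading caseins, since *Csn2* exceeded *Csn1s2a* by 1.12 to 1.34 times in each of the 5. *Glycam1* stood above *Csn3* in 4 libraries and far below it in wild type replicate 3. The order by mean was the same under all 10 other settings tried, which were 4 rescalings, the median in place of the mean, and each library left out. All rescalings but the quantile one divide a library by a single factor, so they could not change this order. No setting altered the transcript lengths behind FPKM.

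Together the 7 genes took a large part of the measured expression. They held 12.8%, 16.3% and 5.32% of total FPKM in the wild type libraries and 10.8% and 14.5% in the knockout libraries, with a mean of 11.9% ± 4.2 (SD, n = 5). Short genes of up to 200 bases, such as microRNAs and small nucleolar RNAs, took an uneven part of total FPKM. They held 16.9%, 5.77% and 17.8% in the wild type libraries and 18.1% and 5.29% in the knockout libraries, a split across the labels. In wild type replicate 2 and knockout replicate 2, *Wap* was the highest of its label and *Csn2* was 2.05 and 2.005 times *Csn1s1*. Elsewhere that ratio was 1.703 to 1.82. The ratio of *Csn2* to *Csn1s2a* did not divide this way. The part of this split in the milk protein values was not tested. Over protein-coding genes alone the share of the 7 genes was 16.0%, 17.9% and 6.73% in wild type and 13.6% and 15.8% in knockout libraries. *Csn2* alone held 2.54% to 6.29% of protein-coding FPKM, and *Csn1s2a* and *Csn1s1* 2.19% to 5.11% and 1.48% to 3.07%. Wild type replicate 3 had the lowest share on both totals, and the knockout libraries lay between it and wild type replicate 2.

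**Figure D3:**
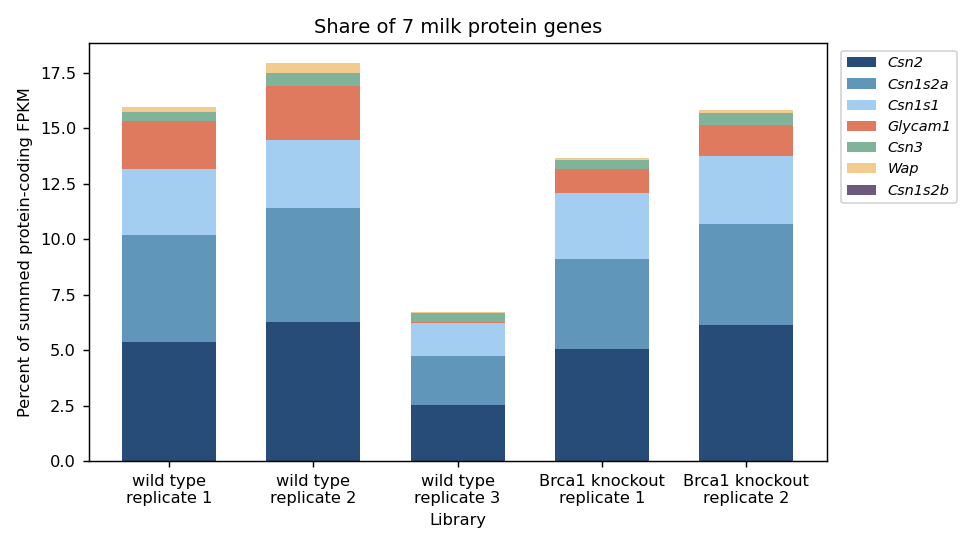
Percent of summed protein-coding FPKM held by each of the 7 genes, stacked, in each library. The height of a bar is the share of all 7, from 6.73% in wild type replicate 3 to 17.9% in wild type replicate 2. The *Glycam1* band was 2.17% and 2.42% in wild type replicates 1 and 2, 1.10% and 1.38% in knockout replicates, and 0.045% in wild type replicate 3.

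Inside the casein family the proportions were nearly fixed for 3 genes. *Csn2* made up 38.3% to 43.0% of summed casein FPKM, *Csn1s2a* 32.0% to 35.4% and *Csn1s1* 20.4% to 23.7% across the 5 libraries, although the summed casein level ranged from 27577 to 76508 FPKM. *Csn3* and *Csn1s2b* varied more. *Csn1s2b* ran from 0.0063% to 0.017%. *Csn3* was at 2.99%, 3.78% and 6.30% in the wild type and 3.40% and 3.59% in the knockout libraries, so that wild type replicate 3 stood above the rest. The ratio of *Csn2* to *Csn3*, the main beta-casein to kappa-casein transcripts, was 6.08 in that library and between 11.1 and 13.3 in the others. *Glycam1* was at 40.2% and 38.5% of *Csn2* in wild type replicates 1 and 2, at 21.7% and 22.5% in the knockout replicates and at 1.76% in wild type replicate 3.

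How closely the genes moved together depended on wild type replicate 3. Likeness was measured by the SD over the 5 libraries of the log2 ratio of a pair, which is small when the genes move in step. It was 0.12 for *Csn1s1* and *Csn2*, 0.11 for *Csn1s1* and *Csn1s2a* and 0.10 for *Csn2* and *Csn1s2a*, while these genes' own SDs were 0.59 to 0.65. Without wild type replicate 3 the ratio SDs of these 3 pairs were 0.11 to 0.13 and the genes' own SDs only 0.07 to 0.18, so that the ratio SDs were then of the same size as the genes' own spread. Over all 21 pairs the median was 1.05 and the range 0.10 to 2.30, and without wild type replicate 3 the median was 0.53. *Csn3* to *Csn2* had an SD of 0.45, *Csn1s2b* to *Csn2* 0.48, *Wap* to *Csn2* 1.06 and *Glycam1* to *Csn2* 1.86. Without wild type replicate 3 these became 0.11, 0.54, 1.14 and 0.48, so *Csn3* then followed *Csn2* as closely as *Csn1s2a* did. Over all 5 libraries, *Csn2* was compared with 5414 other genes averaging 10 FPKM or more, the other milk protein genes of that level included. Of these, 3 had a smaller SD to *Csn2* than *Csn1s2a* did and 7, *Csn1s2a* among them, a smaller one than *Csn1s1*. For *Csn3* that number was 1366 and for *Glycam1* 5221. The SD of a ratio also grows with the size of a gene's own changes, which were largest for *Glycam1* among the milk protein genes. With *Glycam1* as the reference, 138 of 5414 genes had a smaller SD to it than *Csn2* did. For *Wap* that number was 58 and for *Csn3* 1708. The libraries were in 1 order, from wild type replicate 3 through knockout replicates 1 and 2 to wild type replicates 1 and 2, for *Csn2*, *Csn1s2a*, *Wap* and *Glycam1*.

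**Figure D4:**
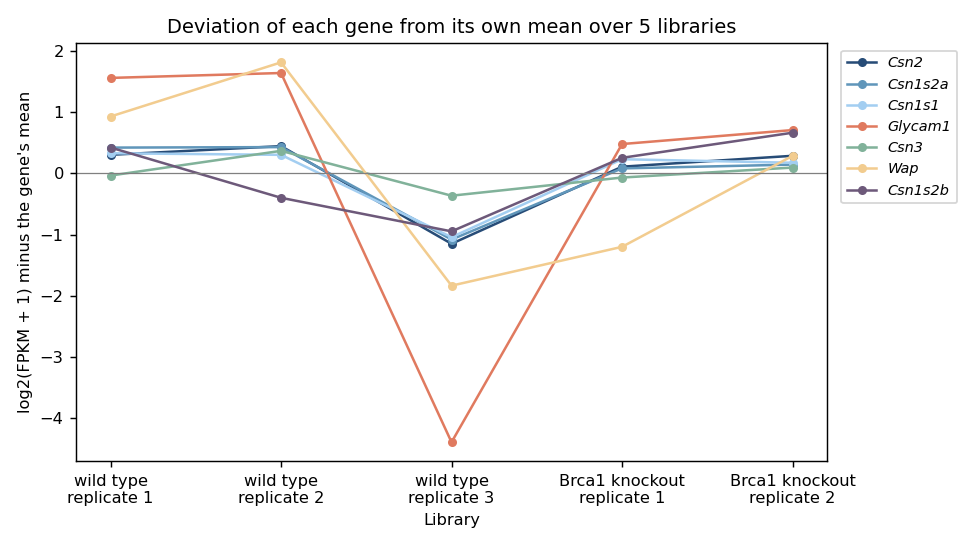
Deviation of each gene from its own mean over the 5 libraries, in log2(FPKM + 1). Lines join the libraries of 1 gene to show its profile and imply no order. *Csn2*, *Csn1s2a* and *Csn1s1* nearly coincide, while *Glycam1* reached -4.40 and *Wap* -1.84 in wild type replicate 3 and *Csn3* stayed at -0.36.

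The genes whose profile was most like the median profile of the 7 were listed by a root mean square (RMS) difference in log2 over the 5 libraries. That profile was -1.08 in wild type replicate 3 and 0.11 to 0.43 elsewhere, so that library weighs most in the list. *Taldo1*, a pentose phosphate pathway enzyme, was nearest of 5409 candidates at 0.063, followed by *Apool* at 0.067, *Mocs1* at 0.080, *Gpd1* (glycerol-3-phosphate dehydrogenase) at 0.082 and *Pdhb* (a pyruvate dehydrogenase subunit) at 0.084. *Mrpl12*, *Srp19*, *Slc31a2*, *Mrps35* and *Dtymk* completed the 10, at 0.086 to 0.105. *Taldo1* was at 286, 310 and 103 FPKM in wild type and 222 and 261 FPKM in knockout libraries. Among the milk protein genes, *Csn2* and *Csn1s2a* were as near, at 0.062 and 0.065, which the profile includes, and *Glycam1* was at 1.68. Wild type replicate 3 was the lowest library for 55.3% of the candidates.

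Wild type replicate 3 stood lowest for every milk protein gene, by very different margins. The mean of the other 4 libraries was 2.47 to 2.81 times its level for *Csn1s1*, *Csn2*, *Csn1s2a* and *Csn1s2b*, 1.38 times for *Csn3*, 6.35 times for *Wap* and 48.2 times for *Glycam1*. All 7 milk protein genes were lowest in this library, as were 51.8% of 11481 genes tested, and none was highest there, as were 18.5%. *Csn1s1*, *Csn2*, *Csn1s2a* and *Glycam1* were at least 2-fold below every other library there, as were 7.64% of genes tested. Without it, the SD of log2(FPKM + 1) was 0.07 for *Csn1s1*, 0.14 for *Csn2*, 0.18 for *Csn1s2a* and 0.59 for *Glycam1*, all well below their SDs over 5 libraries. For *Wap*, *Csn3* and *Csn1s2b* it remained at 1.27, 0.20 and 0.46. *Glycam1* then spanned 2.24 times, *Csn1s2b* 2.32 times and *Wap* 8.12 times.

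The same library also differed in cell type markers and in depth. Summed FPKM of 6 mature luminal markers was 581 there against 15.1 to 36.0 in the others, and that of 5 proliferation genes was 2.79 against 47.5 to 102. All 5 luminal markers, such as *Krt8*, were highest there, with a sum of 9957 against 5810 to 6816 FPKM. Basal markers summed to 13.6 FPKM there and 44.3 to 139 elsewhere. *Krt14* made up most of the sum in the other libraries (27.7 to 104 FPKM). In wild type replicate 3 it was at 3.65 FPKM, below *Krt17* at 6.08 FPKM. Of the 5 basal markers tested, 3 were lowest there, and *Krt5* and *Krt17* were not. Luminal progenitor markers summed to 552 against 420 to 647 FPKM. Of these 5 markers, 3 (*Aldh1a3*, *Cd14* and *Itga2*) were highest there and 1 (*Elf5*) was lowest. All 4 adipocyte markers were under 1 FPKM in every library. Fibroblast markers summed to 86.0 FPKM there, 109 FPKM in wild type replicate 2 and 2.997 to 12.6 FPKM elsewhere, and immune markers to 50.4, 251 and 4.77 to 7.75 FPKM. Endothelial markers summed to 7.20 FPKM there, 6.49 FPKM in wild type replicate 2 and 0.14 to 0.60 FPKM elsewhere. Estimated depth, from the spacing of low FPKM values, was 6300000, 13000000 and 30300000 fragments in wild type and 6350000 and 21300000 in knockout libraries. The part of these differences in the milk protein levels was not tested, and in bulk samples fewer cells of a type cannot be told apart from less RNA per cell.

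Other genes of milk protein biology did not follow 1 pattern. Of 20 regulators of casein transcription, 10 were lowest and 4 highest in wild type replicate 3, close to the 51.8% and 18.5% of all genes tested. Against those shares the counts of these short lists are descriptions only. *Elf5*, an alveolar transcription factor, was at 102 FPKM there and 244 to 338 FPKM elsewhere, and *Stat5a*, which carries the prolactin signal, was at 35.8 against 43.3 to 75.0 FPKM. *Prlr*, the prolactin receptor, was instead at 148 against 5.61 to 10.3 FPKM. Of 14 other secreted or globule milk protein genes, 4 were lowest and 7 highest there. *Lalba*, the whey protein of lactose synthase, was at 599 against 130 to 185 FPKM, and *Mfge8*, a milk fat globule protein, at 2195 against 506 to 638 FPKM. Of 8 genes of casein phosphorylation and secretion, 5 of the 7 tested were lowest there, among them *Fam20c*, the kinase that phosphorylates caseins, at 5.69 against 47.1 to 57.9 FPKM. Of 12 WAP-domain genes listed, 6 were tested, of which 2 were lowest and 3 highest there. *Wfdc18* (1878 against 3862 to 6916 FPKM) was 1 of the 2 and *Wfdc2* (245 against 4.12 to 7.15 FPKM) 1 of the 3.

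Between the labels, none of the 7 genes passed the test. In limma with Benjamini-Hochberg adjustment over 11481 genes, 0 genes were called (0.0% of genes tested), while 372 (3.24%) had an unadjusted p under 0.05 and none of the 7 did. The median log2 fold change of the 7, knockout minus wild type, was 0.33, and that of all genes tested was 0.11. For no milk protein gene did the labels fail to overlap, whereas knockout was wholly lower for 5.77% of genes tested and wholly higher for 17.5%. For *Csn2* the log2 fold change was 0.33 (SE 0.58, 95% confidence interval -1.12 to 1.79, adjusted p = 0.95 by limma). For *Csn1s2a* it was 0.19 (SE 0.57, interval -1.23 to 1.61) and for *Csn1s1* 0.34 (SE 0.52, interval -0.96 to 1.64). *Csn3* had the narrowest interval, with 0.02 (SE 0.30, interval -0.73 to 0.78), and *Glycam1* the widest, with 0.99 (SE 1.94, interval -3.89 to 5.88). *Wap* was at -0.76 (SE 1.15, interval -3.66 to 2.14) and *Csn1s2b* at 0.77 (SE 0.43, interval -0.32 to 1.86). Adjusted p-values by limma of the 7 lay between 0.92 and 1.00. None of the 20 regulators, 14 other milk protein genes, 6 WAP-domain genes and 7 phosphorylation and secretion genes tested passed either, and the medians of their log2 fold changes were 0.17, -0.31, -0.98 and 0.38.

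These differences turned with wild type replicate 3. Without that library, *Csn2*, *Csn1s2a*, *Csn1s1*, *Csn3* and *Glycam1* changed sign, to -0.18, -0.31, -0.11, -0.15 and -1.01, and the median of the 7 was -0.18 against 0.03 for all genes tested. *Glycam1* at -1.01 (SE 0.36, interval -2.02 to 0.01) and *Wap* at -1.83 (SE 0.64, interval -3.64 to -0.02) had the largest differences in size. Their unadjusted p-values by limma were 0.051 and 0.048, and both had an adjusted p of 0.67. With 2 libraries in each group, *Csn1s1*, *Csn2*, *Csn1s2a*, *Wap* and *Glycam1* were lower in both knockout libraries than in both wild type libraries, as were 15.6% of genes tested. None of the 7 was higher in both, as were 23.5% of genes tested. No gene passed the adjusted threshold in that fit, where 842 genes (7.33%) had an unadjusted p under 0.05. *Csn1s2b* kept its sign at 0.45 (SE 0.36).

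**Figure D5:**
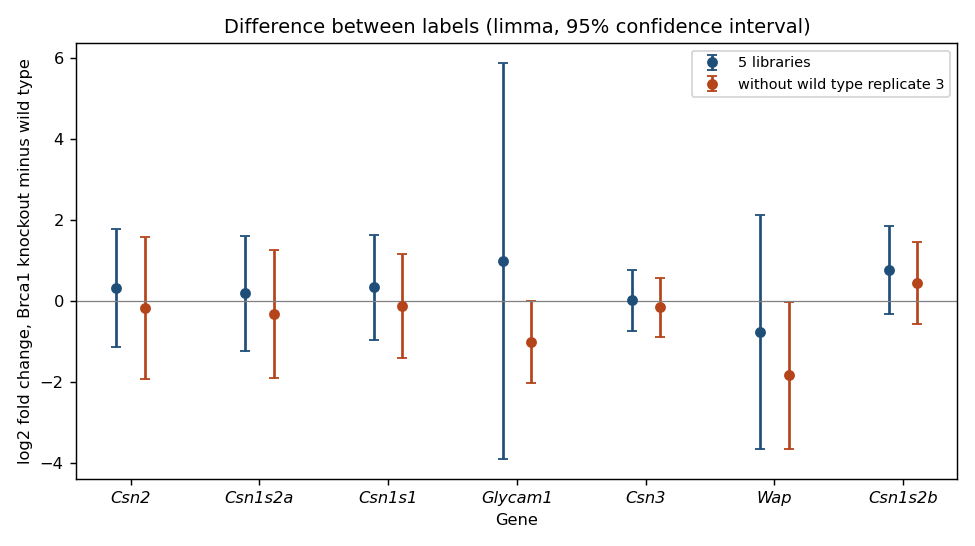
Log2 fold change of each gene, *Brca1* knockout minus wild type, with 95% confidence intervals from limma (vertical bars), for all 5 libraries (blue) and without wild type replicate 3 (orange). The zero line marks no difference. Every blue interval spans 0. Without wild type replicate 3 the *Wap* interval ends at -0.02 (adjusted p = 0.67 by limma).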

How the data were processed

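Luminal cells were measured by bulk RNA-seq in 5 libraries, 3 labelled wild type and 2 labelled *Brca1* knockout, and replicates were numbered in accession order. The authors aligned paired-end reads to mm10 with TopHat and deposited FPKM that Cufflinks had computed. The submitters' processing notes give Trimmomatic 0.35, TopHat2 2.0.13 and Cufflinks 2.2.1, and the paper's text names another TopHat release. Reads came from either of a pair of Illumina HiSeq models, and the model behind each library and the annotation used are not given in the sources used here. Of 24346 rows, 27 had names turned into dates by a spreadsheet and were left out, leaving 24319 genes. FPKM of low genes lay within 0.15 of a step of a whole multiple of 1 fragment in 54.6% to 61.4% of cases, so no counts were recovered and no count model was run. No 2 libraries held identical values.

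Values were used as log2(FPKM + 1), a scale that understates the change of low genes. The 11481 genes averaging 1 FPKM or more were compared between labels with limma 3.58.1 (trended eBayes) in R 4.3.3, adjusted by the Benjamini-Hochberg method at 0.05. The code was tested on simulated data. Estimated fragments were FPKM times annotated transcript length times depth. Likeness was the RMS difference of centred log2 profiles over genes of at least 10 FPKM. Named genes were the 7 genes, the 10 most like genes, their genomic neighbours and genes of the marker and pathway lists. The 7 genes, lists and tests were chosen with earlier results of these data known. Coordinates are GENCODE M21 (GRCm38, mm10) and upstream windows RefSeq GRCm38.p6, which held 5 of the 7 genes. Alternatives were another pseudocount (0.1), other filters, 5 rescalings, no trend, library weights and each library left out. The alternative with the protein-coding total was chosen after seeing the data. Biopython 1.88, pandas 2.3.3 and numpy 2.4.6 ran under Python 3.11.15.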

Additional observations from a re-analysis of the deposited data

Results flagged for a closer look

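In wild type replicate 3, 4 genes stood apart from the other 4 libraries by Dixon's test for a single distant value. On the log2(FPKM + 1) scale *Csn1s1* was at 12.59, *Csn2* at 13.37, *Csn1s2a* at 13.15 and *Glycam1* at 7.55 there, each the lowest library. *Csn3* made up 6.30% of summed casein FPKM in the same library, which was apart as the highest. Of 15 values examined, 5 were apart, where chance gives about 1 in 20 groups, or 0.75 if the values were independent. They are not, since the 15 include shares and ratios of the same genes, and the 4 genes share 1 library and vary together. Of all genes tested, 7.39% had this library apart and lowest.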

How the results depend on the processing

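Unadjusted p-values by limma under 0.05 arose for *Wap* and *Csn1s2b* with library weights, where 24.4% of genes tested had one. Without wild type replicate 1 only *Csn1s2b* had one (7.56% of genes tested), and without wild type replicate 3 only *Wap* (7.33%). No milk protein gene passed the adjusted threshold under any setting. The count of all genes past it, 0 with all 5 libraries, was 1 with library weights, and leaving out 1 library in turn gave 0 to 18 (18 without knockout replicate 1, 4 without knockout replicate 2, 2 without wild type replicate 1, 0 without the others). Library weights turned the log2 fold change to -0.071 for *Csn1s1*, -0.20 for *Csn2*, -0.28 for *Csn1s2a*, -0.31 for *Csn3* and -0.90 for *Glycam1*, and median-of-ratios scaling turned *Csn3* to -0.089. Leaving out 1 library in turn gave -0.11 to 0.57 for *Csn1s1*, -0.18 to 0.62 for *Csn2*, -0.31 to 0.44 for *Csn1s2a*, -0.15 to 0.21 for *Csn3* and -1.01 to 2.01 for *Glycam1*. The same gave -1.83 to -0.0041 for *Wap*, which was near 0 without wild type replicate 2 or knockout replicate 1 (-0.016) and -2.11 with library weights, and 0.45 to 1.13 for *Csn1s2b*. The cause was not tested. With FPKM multiplied by transcript length, the share of the 7 genes was 7.55% in place of 11.9%, since these transcripts are short. Median-of-ratios scaling moved the median log2 fold change of all genes from 0.11 to 0.01. No paired analysis was possible because the sources used here state no link between a wild type and a knockout library. With 3 libraries against 2 and no read counts, only large differences could be seen, and a library left out of a group of 2 leaves 1 library whose spread is assumed to be that of the others.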
